A study of Arabidopsis thaliana with 15 samples.

Results

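Genes for enzymes that build, acetylate and cut cell wall polysaccharides were followed in Arabidopsis thaliana roots of 5 genotypes. They were all genes with a symbol of the families XTH, TBL, GH9, CSL, CESA, GAUT or PME on a probe set annotated to exactly 1 gene, a rule on symbols. The rule found 55 genes, each with 1 probe set, of 13356 genes named in this way among 22746 probe sets other than controls. In functional terms 9 belong to xyloglucan remodelling (XTH), 22 to acetylation (TBL), 15 to cellulases (GH9), 7 to polysaccharide synthases (CSL) and 2 to pectin (GAUT15 and PME61). They are part of each family, as the reference genome has 151 genes with such symbols. Of these, 30 are XTH, 41 TBL, 21 GH9, 26 CSL, 7 CESA, 13 GAUT and 13 PME genes. No CESA gene (0 members) was named by a probe set in this way, so cellulose synthase itself is not analysed here, and 2 further probe sets, each shared by a pair of GH9B genes, were left out.

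RNA came from roots of plants 2 weeks old on modified Knop's medium, with 3 arrays for each genotype and 15 arrays in all. Col-0 and WS served as wild types. The triple mutant grf1/grf2/grf3 lacks function of growth-regulating factors GRF1, GRF2 and GRF3, transcription factors of growing tissue, as far as its label tells, and its ecotype is given as both Col-0 and WS. The line P35S:rGRF1 (ecotype Col-0) carries a GRF1 form that the microRNA miR396 cannot target, and P35S:rGRF3 (ecotype WS) carries the like form of GRF3. Both transgenes are driven by the CaMV 35S promoter, which is active in most plant cells, so expression was not limited to the cells that normally make these factors. The labels name neither the alleles of the mutant nor the number of independent lines. They do not say that replicates were grown separately either, so p-values measure only the spread between these samples. GRF1, GRF2 and GRF3 themselves are not analysed here, so the labels were not checked against them. The series, by its title, concerns genes under the control of GRF1 and GRF3 in roots.

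Primary walls of growing plant cells are cellulose microfibrils tied together by xyloglucan and embedded in pectin. CSLC proteins make the glucan backbone of xyloglucan, CSLA proteins make mannans, and CSLD proteins act at growing tips such as root hairs. TBL proteins include the enzymes that put acetyl groups on wall polysaccharides. XTH enzymes cut and rejoin xyloglucan chains, GH9 enzymes cut glucan chains, GAUT proteins belong to a family that makes pectin and PME enzymes remove methyl groups from pectin.

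Values are log2 of the deposited signal. Array medians ran from 7.58 to 7.73, and 15 arrays set the limit of precision. A probe set was tested where its mean over all arrays was at least 6.84 (the 40th percentile), which 13648 probe sets reached, and was called at an adjusted p under 0.05 (limma, Benjamini-Hochberg over all of them, two-sided). The 18 control probe sets for RNA added at hybridization read 10.72 to 11.20 on the WS and mutant arrays and 9.68 to 10.33 on the other 9. Comparisons between these 2 sets of arrays cannot tell genotype from whatever set the arrays apart. The label of the mutant gives both ecotypes, so its comparison with WS cannot tell the mutations from ecotype background. Of 321 probe sets that differed at least 4-fold between WS and Col-0, the mean of P35S:rGRF3 lay nearer to Col-0 at 293, although its label gives WS. P35S:rGRF1 lay nearer to Col-0 at 287, and the mutant nearer to WS at 265. These counts follow the 2 sets of arrays, so they cannot tell whether the ecotype label is right. The arrays labelled P35S:rGRF3 are compared with Col-0, which is in the same set, first and with WS second. By that label, comparisons of P35S:rGRF3 with Col-0 and with P35S:rGRF1 cross ecotypes. Transgene and ecotype cannot be told apart in them.

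The root label was borne out by PYK10 (a root beta-glucosidase), EXPA7 and EXPA18 (expansins of root hairs), the 3 root markers of 13 on the list that the array named. All 3 stood above the filter value on every array, and their summed linear signal lay between 17070 and 22382 on the 15 arrays, most of it from PYK10. Of the 2 root hair markers, EXPA18 moved with genotype within a set of arrays. EXPA18 was lower in P35S:rGRF1 than in Col-0 by -0.54 (adjusted p = 0.0465), higher in P35S:rGRF3 than in P35S:rGRF1 by 0.54 (adjusted p = 0.029) and lower in WS than in Col-0 by -1.01 (adjusted p = 9.76e-05). EXPA7 was lower in WS than in Col-0 by -0.77 (adjusted p = 0.00106). Both differences between WS and Col-0 cross the 2 sets of arrays. Within a set EXPA7 was not called (adjusted p = 0.058 to 0.873), and EXPA18 was not called in the mutant against WS (adjusted p = 0.121). Of 7 markers of xylem secondary walls the array named none (0). The 4 leaf markers named, of 14 on that list (LHCB4.1, PSBW, PSBY and RCA), were above it too, with none at 0. Their summed signal was 3122 to 3627 over the WS arrays and 1807 to 2879 over those of the mutant, against 3324 to 3469 in P35S:rGRF1, 1877 to 2678 in P35S:rGRF3 and 1880 to 3195 in Col-0. It thus did not overlap between mutant and WS, between P35S:rGRF1 and Col-0, or between the lines. In the mutant against WS, PSBY was lower by -0.67 (adjusted p = 0.0036), PSBW by -1.10 (adjusted p = 0.0152) and LHCB4.1 by -0.88 (adjusted p = 0.0338). RCA was not called there (-0.15, adjusted p = 0.652). In P35S:rGRF3 against P35S:rGRF1, PSBY was lower by -0.58 (adjusted p = 0.00635) and PSBW by -0.85 (adjusted p = 0.0395), and LHCB4.1 and RCA were not called (adjusted p = 0.136 and 0.0544). No leaf marker was called in P35S:rGRF1 against Col-0 (adjusted p = 0.111 to 0.768). The part of both marker sets in the results below was not tested. In whole roots, fewer cells of a type and less RNA per cell cannot be told apart.

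Of the 55 genes, 35 passed the filter: 7 XTH, 16 TBL, 5 GH9, 6 CSL genes and GAUT15. The 20 others had mean signals from 2.65 to 6.84, and 17 of them were under the filter value on every array. They include 10 of the 15 cellulase genes and PME61. The span of the 5 genotype means ran from 0.13 at TBL16 to 1.95 at TBL45 among the 35, with a median of 0.74 against 0.65 over all probe sets tested. The replicate SD had a median of 0.18 at the members and 0.15 over all, and among genotypes the members' median SD was highest in P35S:rGRF3 (0.28) and Col-0 (0.24).

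**Figure D1:**
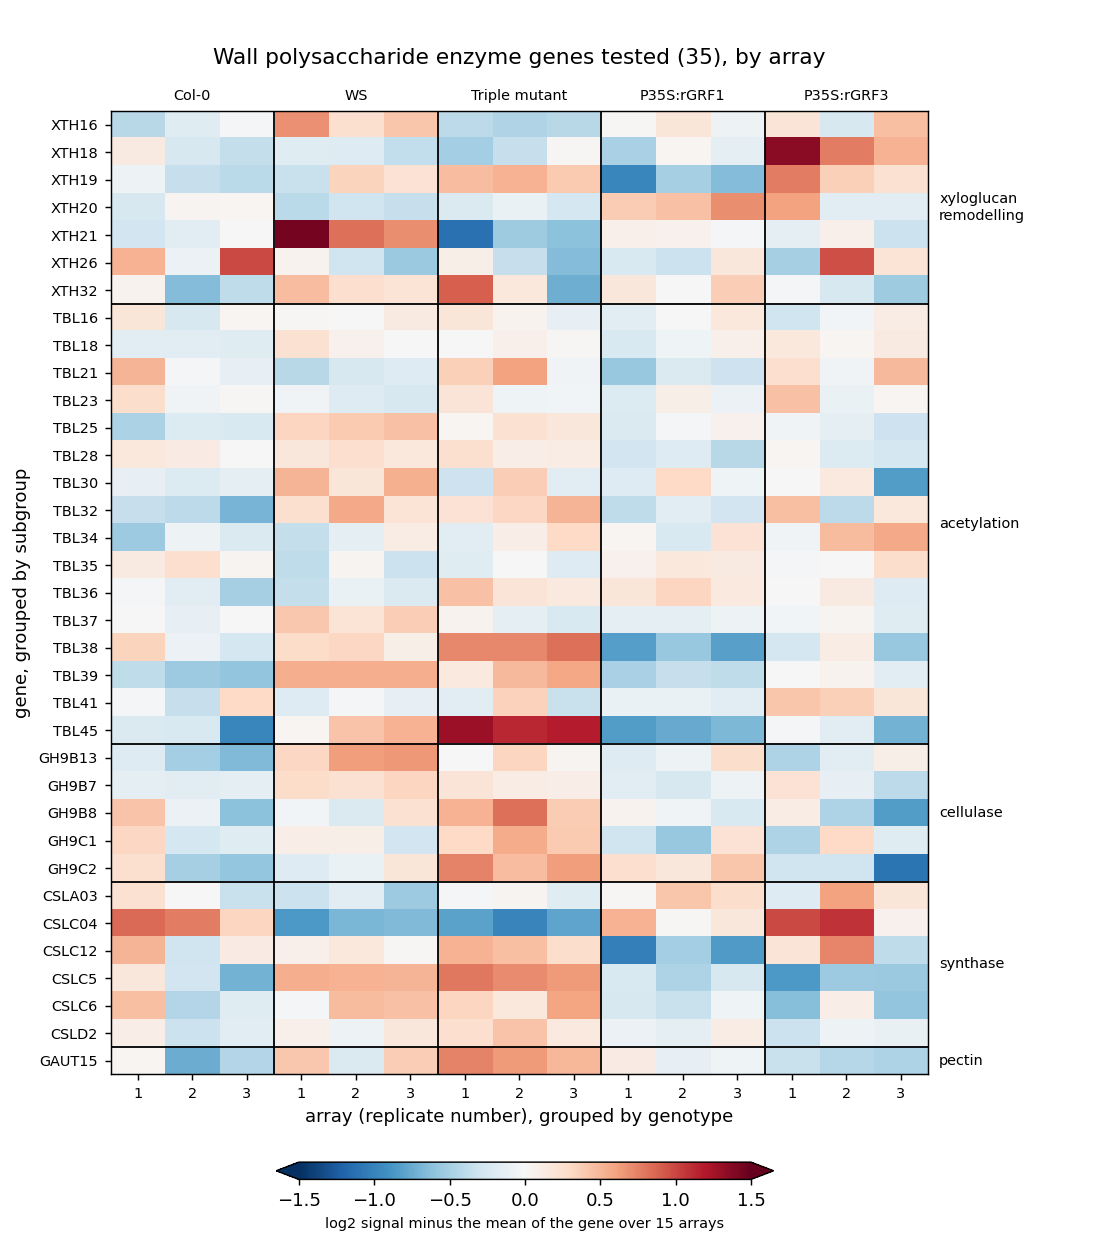
Each row is 1 of the 35 genes tested and each column 1 of the 15 arrays; colour gives log2 signal minus the mean of that gene over all arrays, from blue (below) to red (above), cut at 1.5 either way. XTH21 stands out high in WS, TBL45 and TBL38 in the mutant, XTH18 in P35S:rGRF3, and CSLC04 separates the WS and mutant arrays from the rest.

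The shares of these genes that changed were close to those of the whole array. In the mutant against WS 6 of 35 were called (17.1%, with 13.9% of all probe sets tested), 3 higher and 3 lower, where 7.38% of all were higher and 6.54% lower. In P35S:rGRF1 against Col-0 there were 5 (14.3%, with 10.5% over all), 2 higher and 3 lower, where 5.30% of all were higher and 5.17% lower. In P35S:rGRF3 against Col-0 there were 4 (11.4%, with 11.9% over all), all 4 higher, where 5.30% of all probe sets were called higher and 6.61% lower. The lines differed from each other at 7 genes (20.0%, with 21.2% over all), 6 of them higher in P35S:rGRF3 and 1 lower, where 8.63% of all were higher and 12.6% lower. Medians of the 35 were 0.07, 0.01, 0.06 and 0.06 in these 4 comparisons, and -0.01, 0.03, -0.02 and -0.06 over all probe sets tested. Each pair among the comparisons of the lines with Col-0 and with each other shares the arrays of 1 genotype, so their calls are not independent.

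Leaving out single arrays moved these counts, and mostly the shares over all probe sets with them. In the mutant against WS the count was 2 without WS replicate 1 (9.22% over all) and 3 without WS replicate 3 (8.48% over all). In P35S:rGRF1 against Col-0 it was 1 without P35S:rGRF1 replicate 1 or 3 (4.29% and 5.16% over all), and 2 without Col-0 replicate 2 or 3 (8.0% and 11.4%). It was 3 there without Col-0 replicate 1, P35S:rGRF1 replicate 2, WS replicate 3 or mutant replicate 2 (4.82%, 5.54%, 9.38% and 9.53%), the last 2 of which enter only through the shared estimate of spread. In P35S:rGRF3 against Col-0 it was 1 without Col-0 replicate 2 (7.13%), and between the lines 3 and 4 without P35S:rGRF1 replicate 1 and 3 (12.3% and 14.2%).

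**Figure D2:**
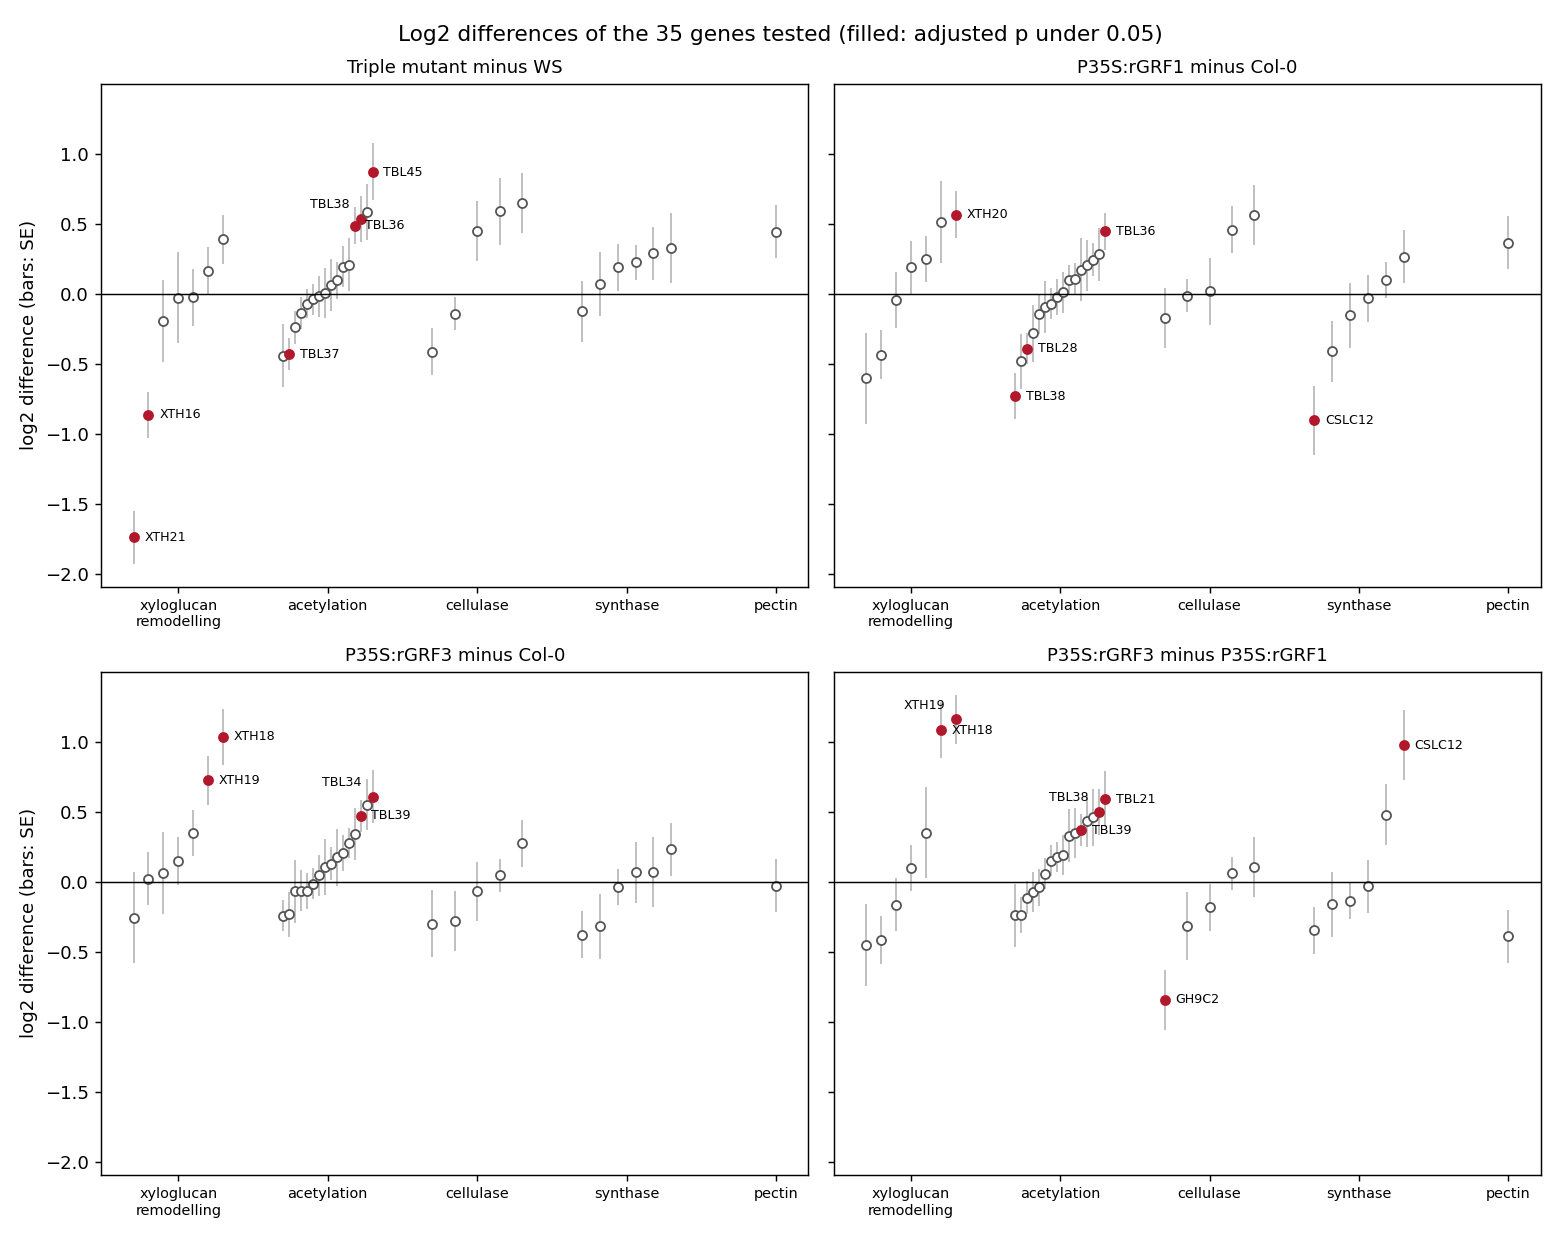
Log2 differences (y axis, with SE) of the 35 genes tested, by subgroup (x axis), in the mutant against WS, in each line against Col-0 and between the lines; filled points have an adjusted p under 0.05. XTH21 and XTH16 are the lowest points of the mutant, XTH18 and XTH19 the highest of P35S:rGRF3, and no cellulase gene is filled in the first 3 panels.

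Xyloglucan remodelling genes held the largest change of the 35 genes in the mutant against WS and in P35S:rGRF3 against Col-0. XTH21 (AT2G18800) and XTH16 (AT3G23730) fell in the mutant against WS, whereas XTH18 (AT4G30280) and XTH19 (AT4G30290) rose in P35S:rGRF3 against Col-0. XTH20 (AT5G48070) was the XTH gene called in P35S:rGRF1. All are xyloglucan endotransglucosylase/hydrolases. Of the 7 XTH genes tested, 2 were called in the mutant against WS (28.6%, with 13.9% of all probe sets tested). Against Col-0, 1 was called in P35S:rGRF1 (14.3%, with 10.5% over all) and 2 in P35S:rGRF3 (28.6%, with 11.9% over all).

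XTH21 read 9.68, 9.08 and 8.95 on the WS arrays and 7.13, 7.71 and 7.64 on the mutant arrays. Every mutant array was below every WS array by more than a log2 unit. The fall was -1.74 (SE 0.19, adjusted p = 3.36e-05), a fold of 3.34, and the call held under every alternative run. Col-0 (8.10 ± 0.15, SD, n = 3), P35S:rGRF1 (8.29 ± 0.06) and P35S:rGRF3 (8.12 ± 0.20) lay between them and differed from each other by at most 0.19. WS was higher than Col-0 at XTH21 by 1.13 (SE 0.19, adjusted p = 1.14e-04). Against Col-0 the mutant was lower by -0.61 (SE 0.19, adjusted p = 0.0149), a call lost without Col-0 replicate 3 (-0.53, adjusted p = 0.0572) or mutant replicate 1 (-0.43, adjusted p = 0.0875).

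XTH16 followed a like order, with 9.71, 9.26 and 9.44 in WS and 8.63, 8.57 and 8.61 in the mutant. The groups did not overlap, and the mutant arrays were tightly grouped. Its fall was -0.87 (SE 0.16, adjusted p = 0.00236), which also held under every alternative. WS was above Col-0 by 0.66 (SE 0.16, adjusted p = 0.00316), and the difference of the mutant from Col-0 was -0.21 (adjusted p = 0.317). At both genes WS was the genotype that stood highest, and the comparisons of WS with Col-0 and with the mutant share the WS arrays. Mutation and ecotype background cannot be told apart in these falls.

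XTH18 and XTH19 are neighbours on chromosome 4 with no protein-coding gene between them. XTH18 read 11.03, 10.45 and 10.20 in P35S:rGRF3 and 9.82, 9.44 and 9.32 in Col-0. All 3 line arrays exceeded every array of the other 4 genotypes, whose highest was 9.82. Its rise over Col-0 was 1.04 (SE 0.20, adjusted p = 0.00291), and it was 1.13 over WS (SE 0.20, adjusted p = 1.98e-04) and 1.08 over P35S:rGRF1 (SE 0.20, adjusted p = 0.0014).

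XTH19 read 11.32, 10.90 and 10.78 in P35S:rGRF3 and 9.57, 10.05 and 9.90 in P35S:rGRF1. Col-0 arrays read 10.47, 10.21 and 10.14. The P35S:rGRF3 arrays were above all arrays of both other genotypes. XTH19 rose over Col-0 by 0.72 (SE 0.18, adjusted p = 0.0136), a call lost without Col-0 replicate 2 (0.69, adjusted p = 0.0513) or P35S:rGRF3 replicate 1 (0.56, adjusted p = 0.0741). Against WS, whose arrays read up to 10.88 and overlapped with the line, its difference was 0.38 (adjusted p = 0.0834). The direct difference between the lines was 1.16 (SE 0.18, adjusted p = 2.93e-04) and kept its call throughout. Unlike XTH18, XTH19 also read high in the mutant, at 11.01 ± 0.07 (SD, n = 3). Across the sets of arrays the mutant was above Col-0 by 0.73 (SE 0.18, adjusted p = 0.00297). Against WS, within a set, its difference was 0.39 (SE 0.18, adjusted p = 0.166) and was not called. The probe sets of the 2 genes are separate, and whether either also binds the transcript of the other was not tested.

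XTH20 read 9.71, 9.78 and 10.04 in P35S:rGRF1 and 9.09, 9.37 and 9.37 in Col-0, without overlap. Its difference of 0.56 (SE 0.17, adjusted p = 0.0446) passed with all arrays or without 1 of the P35S:rGRF3 arrays, and was lost without any 1 of the 12 others (0.47 to 0.63, adjusted p = 0.0524 to 0.158). With the signal of RNA added before labelling (poly-A controls) as a covariate it was 0.35 (adjusted p = 0.232). These controls read 9.30 to 9.73 on the P35S:rGRF1 arrays and 8.01 to 8.89 on those of Col-0, without overlap. A fit with that covariate cannot fully separate the 2 genotypes from the controls. The call was also lost with no filter (adjusted p = 0.064), no mean-variance trend (adjusted p = 0.0525) and the replicate number as a block (adjusted p = 0.0628). XTH26 and XTH32 were not called in any comparison. XTH32 had the narrowest span of genotype means in the subgroup, 0.63, but read 8.78, 8.03 and 7.15 on the mutant arrays, a spread wider than that span.

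**Figure D3:**
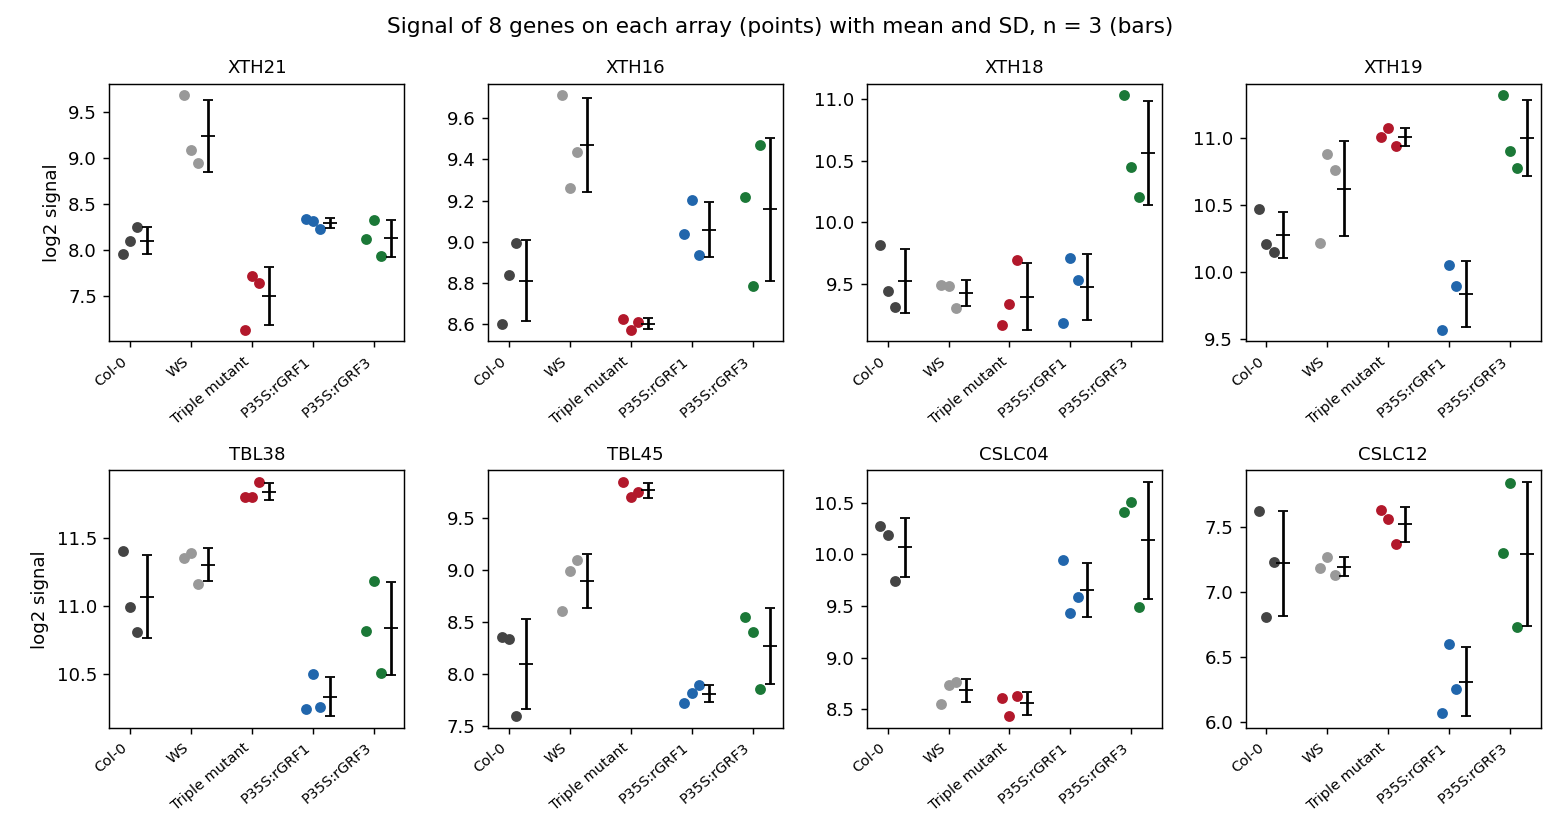
Log2 signal (y axis) of XTH21, XTH16, XTH18, XTH19, TBL38, TBL45, CSLC04 and CSLC12 on each of the 3 arrays of the 5 genotypes (x axis), with mean and SD beside the points; each panel has its own scale. XTH21 is lowest in the mutant, at 7.13 to 7.71, and XTH18 is highest in P35S:rGRF3, at 10.20 to 11.03.

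Acetylation genes changed in both directions. In the mutant against WS 3 of 16 TBL genes rose (TBL45, TBL38 and TBL36) and 1 fell (TBL37), with 7.38% of all probe sets higher and 6.54% lower. In P35S:rGRF1 TBL36 rose, and TBL38 and TBL28 fell, against Col-0, with 5.30% of all higher and 5.17% lower. In P35S:rGRF3 TBL34 and TBL39 rose against Col-0, with 5.30% of all higher. Subgroup medians were 0.03, -0.01 and 0.12 in these comparisons.

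TBL38 (AT1G29050) was the gene called in opposite directions in the mutant and in P35S:rGRF1. It read 11.80, 11.80 and 11.91 in the mutant and 11.35, 11.39 and 11.16 in WS. Arrays of P35S:rGRF1 read 10.25, 10.50 and 10.26, and those of Col-0 read 11.40, 10.99 and 10.81. The mutant arrays were above, and the P35S:rGRF1 arrays below, all arrays of both wild types. The fall in P35S:rGRF1 was -0.73 (SE 0.16, adjusted p = 0.0105) and held under every alternative. The rise in the mutant was 0.53 against WS (SE 0.16, adjusted p = 0.0375), a call lost when any 1 of the 6 WS and mutant arrays was left out (0.46 to 0.58, adjusted p = 0.0615 to 0.133), with no filter (adjusted p = 0.0545) or with no mean-variance trend (adjusted p = 0.0519). Against Col-0, across the sets of arrays, the mutant was higher by 0.77 (SE 0.16, adjusted p = 0.00113). P35S:rGRF3 read 10.82, 11.18 and 10.51, within the Col-0 range on 2 arrays and below it on 1 (-0.23, adjusted p = 0.4).

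TBL45 (AT2G30010) had the widest span of genotype means of all 35 genes, 1.95. It read 9.85, 9.70 and 9.75 in the mutant and 8.60, 9.00 and 9.10 in WS. Col-0 arrays read 8.35, 8.34 and 7.59. Those of P35S:rGRF1 read 7.73, 7.81 and 7.90, and those of P35S:rGRF3 read 8.55, 8.41 and 7.86. The mutant lay above every other array and WS above all arrays of Col-0 and both lines. The mutant exceeded WS by 0.87 (SE 0.20, adjusted p = 0.00962), a call lost without WS replicate 1 (0.72, adjusted p = 0.0525), and Col-0 by 1.67 (SE 0.20, adjusted p = 7.35e-06). The difference of P35S:rGRF1 from Col-0 was -0.28 (adjusted p = 0.396).

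TBL36 (AT3G54260) was called higher both in the mutant against WS and in P35S:rGRF1 against Col-0. It read 11.46, 11.21 and 11.17 in the mutant against 10.66, 10.93 and 10.81 in WS, and 11.20, 11.35 and 11.17 in P35S:rGRF1 against 11.00, 10.86 and 10.53 in Col-0. Neither pair overlapped. The rise in the mutant was 0.48 (SE 0.13, adjusted p = 0.0218), and the rise in the line was 0.44 with the same SE (adjusted p = 0.0411). The first was lost without WS replicate 1 or 3 or mutant replicate 1 (0.39 to 0.49, adjusted p = 0.061 to 0.0972). The second was lost without any P35S:rGRF1 array, Col-0 replicate 2 or 3, WS replicate 3 or mutant replicate 2 (0.31 to 0.48, adjusted p = 0.0516 to 0.139). It was also lost with no filter, no trend, only the groups compared or the poly-A covariate (adjusted p = 0.0565 to 0.137).

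TBL37 (AT2G34070) fell in the mutant by -0.43 against WS (SE 0.11, adjusted p = 0.0163). WS stood apart there: it read 9.08 to 9.28, and the other 4 genotypes had means of 8.75 to 8.83. The call was lost without WS replicate 1 or 3 or mutant replicate 2 or 3 (-0.41 to -0.37, adjusted p = 0.0578 to 0.0741). TBL28 (AT2G40150), of a group of xylan acetyltransferases, fell in P35S:rGRF1 by -0.39 (SE 0.11, adjusted p = 0.0323), from 9.09, 9.05 and 8.94 in Col-0 to 8.65, 8.74 and 8.51. That call was lost without Col-0 replicate 1 or 2 or P35S:rGRF1 replicate 1 or 3 (-0.40 to -0.33, adjusted p = 0.0805 to 0.126), with only the groups compared (adjusted p = 0.0659) or with the poly-A covariate (adjusted p = 0.0554). Its direct neighbour TBL30 differed from Col-0 by 0.17 in that line (adjusted p = 0.664).

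In P35S:rGRF3, TBL39 (AT2G42570) rose over Col-0 by 0.47 (SE 0.11, adjusted p = 0.0132), with 10.36, 10.40 and 10.19 against 9.96, 9.80 and 9.76. The call was lost without Col-0 replicate 2 (0.45, adjusted p = 0.0515) or with only the groups compared (adjusted p = 0.0808). Against WS, the ecotype on its label, TBL39 in the line was lower by -0.58 (SE 0.11, adjusted p = 5.41e-04), the opposite direction. TBL34 (AT2G38320), another xylan acetyltransferase, rose by 0.61 (SE 0.19, adjusted p = 0.0474), with 8.24, 8.76 and 8.85 against 7.75, 8.21 and 8.08, which leaves a gap of less than 0.1 between the groups. It was lost without any Col-0 or P35S:rGRF1 array, P35S:rGRF3 replicate 2 or 3, WS replicate 2 or mutant replicate 2 (0.47 to 0.71, adjusted p = 0.0505 to 0.15). The call was also lost with no filter, no trend, array weights, only the groups compared or the poly-A covariate (0.45 to 0.61, adjusted p = 0.0519 to 0.136), and against WS the difference was 0.46 (adjusted p = 0.0533). At the other end, TBL16 had means between 8.16 and 8.29 in all 5 genotypes, a span of 0.13 beside a median replicate SD of 0.17, and was called nowhere. Between the lines 3 of the 16 TBL genes were called, all higher in P35S:rGRF3, where 8.63% of all were higher. TBL21 (AT5G15890) differed by 0.59 (SE 0.20, adjusted p = 0.0444), TBL38 by 0.50 (SE 0.16, adjusted p = 0.0374) and TBL39 by 0.37 (SE 0.11, adjusted p = 0.0306). These 3 calls were lost under 12, 8 and 6 of the 24 alternatives run.

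Cellulase genes gave no call (0 of 5) in the mutant against WS or in either line against Col-0 with limma, although 3, 2 and 0 of them had an unadjusted p under 0.05, beside 27.4%, 26.7% and 25.9% of all probe sets tested. Against Col-0, across the sets of arrays, 3 of the 5 were called higher in the mutant, where 28.1% of all were higher. They were GH9C2 (0.89, SE 0.21, adjusted p = 0.00302), GH9B8 (0.67, SE 0.24, adjusted p = 0.0314) and GH9B13 (0.57, SE 0.17, adjusted p = 0.0108). Arrays overlapped at GH9B8, and the GH9B13 call was lost without Col-0 replicate 3 or mutant replicate 2 (adjusted p = 0.0525 and 0.0568). GH9C2 (AT1G64390), of the cellulases with a carbohydrate-binding module, was the widest ranging. It read 11.52, 11.24 and 11.40 in the mutant and 10.58, 10.68 and 10.96 in WS. In the lines it read 11.03, 10.94 and 11.19 (P35S:rGRF1) and 10.48, 10.48 and 9.68 (P35S:rGRF3). Col-0 arrays read 11.02, 10.28 and 10.19. Mutant and WS arrays did not overlap, and neither did the 2 lines, while Col-0 overlapped with WS and with both lines.

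GH9C2 was lower in P35S:rGRF3 than in P35S:rGRF1 by -0.84 (SE 0.21, adjusted p = 0.0114), the 1 gene of the set that was called lower in that comparison. With the poly-A covariate this call was lost (-0.59, adjusted p = 0.171). The 24 poly-A control probe sets read 6.96 on P35S:rGRF3 replicate 3, the array with the lowest GH9C2 signal, and 9.02 and 8.78 on the other arrays of that line. All P35S:rGRF1 arrays read higher, at 9.30 to 9.73, so the covariate is not separate from genotype here. The difference of GH9C2 between mutant and WS was 0.65 (SE 0.21, adjusted p = 0.055). That value was called without Col-0 replicate 1 or 3 or P35S:rGRF3 replicate 3 (adjusted p = 0.0159, 0.0439 and 0.02), arrays that bear on it only through the shared spread. It was also called after quantile normalization, with array weights, with only the groups compared and with the poly-A covariate (adjusted p = 0.003 to 0.048). The difference of P35S:rGRF1 from Col-0 was 0.56 (adjusted p = 0.106), and was called without Col-0 replicate 1 (0.82, adjusted p = 0.0223) or P35S:rGRF3 replicate 3 (0.56, adjusted p = 0.0478). GH9B7, a secreted cellulase, had the narrowest span of the 5, 0.44, with WS at 11.96 ± 0.05 (SD, n = 3) and Col-0 at 11.54 ± 0.01.

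Synthase genes were called once within a set of arrays against a wild type, at CSLC12 (AT4G07960), 1 of the xyloglucan backbone synthases. That was 1 of 6 in P35S:rGRF1 against Col-0 (16.7%, with 10.5% over all). In the mutant against WS and in P35S:rGRF3 against Col-0 it was 0 of 6 (13.9% and 11.9% over all). CSLC12 fell in P35S:rGRF1, with 6.07, 6.60 and 6.26 against 7.62, 6.81 and 7.23 in Col-0. All 3 line arrays were below the filter value of 6.84 and below every array of the other genotypes, so the size of the fall rests on dim signals. The fall was -0.91 (SE 0.25, adjusted p = 0.0301), and P35S:rGRF3 exceeded P35S:rGRF1 by 0.98 (SE 0.25, adjusted p = 0.0114). Without Col-0 replicate 1 or 3 or P35S:rGRF1 replicate 1 or 3 the first call was lost (-0.90 to -0.71, adjusted p = 0.0529 to 0.136), as it was with no filter (adjusted p = 0.0568) or only the groups compared (adjusted p = 0.0605). The second was lost without P35S:rGRF1 replicate 1 or P35S:rGRF3 replicate 2 (0.70 to 0.86, adjusted p = 0.0563 to 0.0586).

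Of the 3 other CSLC genes tested, CSLC04 (AT3G28180) and CSLC5 (AT4G31590) separated the genotypes along the wild types, in opposite directions. At CSLC6 (AT3G07330) the means of WS (8.65) and the mutant (8.72) were above those of Col-0 (8.30), P35S:rGRF1 (8.14) and P35S:rGRF3 (7.98). Its difference of 0.35 between WS and Col-0 was not called (adjusted p = 0.214). P35S:rGRF3 was called lower than WS at CSLC6 by -0.67 (SE 0.23, adjusted p = 0.0218), although the arrays overlapped. CSLC04 read 8.55, 8.73 and 8.76 in WS and 8.61, 8.43 and 8.63 in the mutant. Col-0 arrays read 10.27, 10.19 and 9.74. Those of P35S:rGRF1 read 9.95, 9.43 and 9.59, and those of P35S:rGRF3 read 10.41, 10.51 and 9.49. The 6 arrays of WS and mutant were all below the 9 others. WS was lower than Col-0 by -1.39 (SE 0.22, adjusted p = 7.53e-05), the mutant was lower than Col-0 by -1.51 (SE 0.22, adjusted p = 4.14e-05), and the mutant differed from WS by -0.13 (adjusted p = 0.766).

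At CSLC5 WS read 9.60, 9.58 and 9.57 and the mutant 9.84, 9.77 and 9.70, all above the Col-0 arrays at 9.23, 8.77 and 8.35. P35S:rGRF1 read 8.83, 8.60 and 8.82 and P35S:rGRF3 8.20, 8.51 and 8.51. WS exceeded Col-0 by 0.80 (SE 0.17, adjusted p = 8.84e-04) and P35S:rGRF3 was lower than WS by -1.18 (SE 0.17, adjusted p = 2.61e-05). Its difference from Col-0, -0.38 (adjusted p = 0.164), was called without Col-0 replicate 3 (-0.59, adjusted p = 0.0196). These gaps follow the 2 sets of arrays, and ecotype and array set cannot be told apart in them. CSLD2 (AT5G16910), needed for root hairs, varied least among the synthases, with a span of 0.45. It was still called higher in the mutant than in Col-0, across the sets of arrays, by 0.41 (SE 0.13, adjusted p = 0.0159). That call was lost without Col-0 replicate 2 (0.31, adjusted p = 0.0881) or mutant replicate 2 (0.33, adjusted p = 0.0775).

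Pectin rests on 1 tested gene, GAUT15 (AT3G58790). It read 8.64, 8.52 and 8.39 in the mutant and 8.29, 7.67 and 8.26 in WS. Lines with a resistant GRF read 8.01, 7.77 and 7.83 (P35S:rGRF1) and 7.55, 7.46 and 7.43 (P35S:rGRF3). Col-0 arrays read 7.92, 7.15 and 7.45. The mutant arrays were above all others. Against Col-0 the mutant was higher by 1.01 (SE 0.19, adjusted p = 4.53e-04), across the sets, and against WS the difference was 0.44 (SE 0.19, adjusted p = 0.14).

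Between the wild types 15 of the 35 genes differed (42.9%, with 51.7% of all probe sets tested), 13 of them higher in WS and 2 lower. Over all probe sets 31.4% were called higher and 20.3% lower in WS, and the median difference was 0.11, against 0.23 for the 35. TBL39 led the acetylation genes at 1.05 (SE 0.11, adjusted p = 1.83e-06), reading 10.89, 10.89 and 10.90 in WS and 9.96, 9.80 and 9.76 in Col-0. GH9B13 (AT4G02290), a secreted cellulase, was higher in WS by 0.99 (SE 0.17, adjusted p = 1.44e-04), with 10.40, 10.72 and 10.74 against 9.90, 9.58 and 9.42. TBL32, a xylan acetyltransferase, was higher by 0.82 and TBL25, a mannan acetyltransferase, by 0.69, and CSLC04 (-1.39) and TBL35 (-0.37) were lower. The TBL32 probe set is of a kind that can bind more than 1 transcript.

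In the mutant against Col-0 15 genes were called as well (42.9%, with 45.1% over all), 13 higher and 2 lower, where 28.1% of all were higher and 17.0% lower. In P35S:rGRF3 against WS there were 18 (51.4%, with 52.4% over all), 5 higher and 13 lower, where 19.4% of all were higher and 33.0% lower. After quantile normalization that split of the members was 9 and 9. These 2 comparisons and that of the wild types share arrays. At the 15 genes that differed between the wild types, the mean of P35S:rGRF3 was nearer to Col-0 at 12 and that of P35S:rGRF1 at 14, while the mutant was nearer to WS at 11. The 4 genes where the mutant was nearer to Col-0 were XTH21, XTH16, TBL37 and TBL30, and the 3 where P35S:rGRF3 was nearer to WS were TBL18, TBL32 and XTH16.

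**Figure D4:**
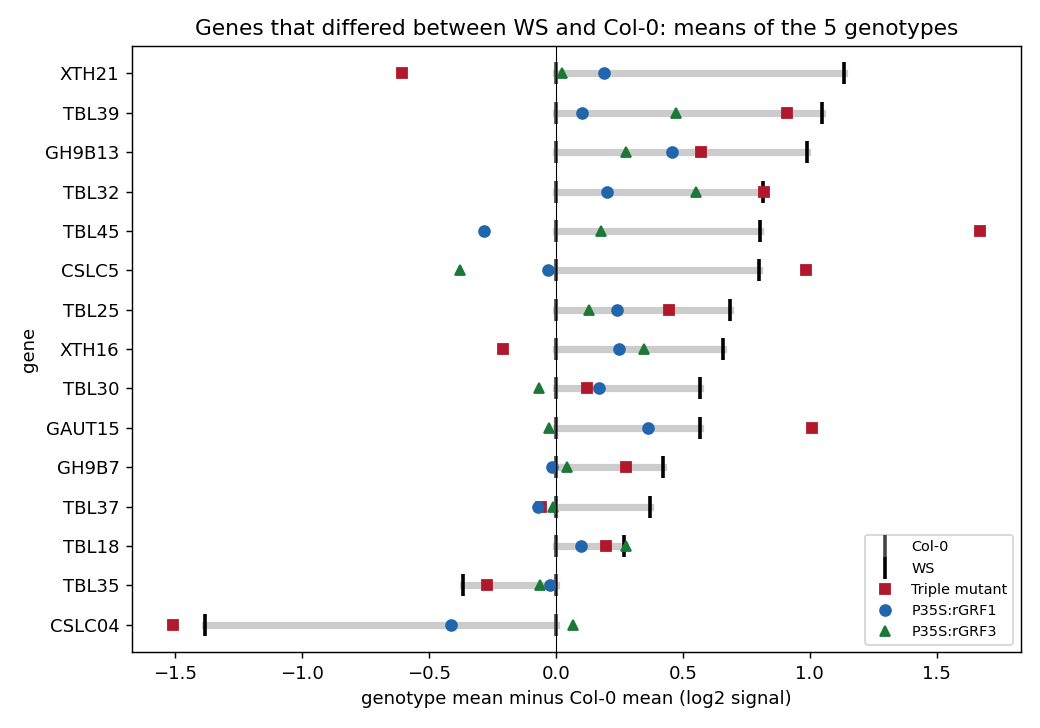
Genotype means minus the Col-0 mean (x axis, log2 signal) at the 15 genes that differed between WS and Col-0 (y axis); grey bars join Col-0 and WS. P35S:rGRF1 and P35S:rGRF3 lie nearer to Col-0 at 14 and 12 of the genes, the mutant nearer to WS at 11, and XTH21, XTH16, TBL45, CSLC04, CSLC5 and GAUT15 have a mutant mean outside the span of the wild types by more than 0.1.

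The genes under the filter were not part of the tests above, and their levels follow. XTH29 read 5.77 ± 0.15 (SD, n = 3) in P35S:rGRF1, 5.70 ± 0.28 in Col-0 and 6.07 ± 0.22 in P35S:rGRF3, and 4.58 ± 0.18 in WS and 4.65 ± 0.29 in the mutant, so that the 2 sets of arrays did not overlap. GH9C3 was highest in WS (7.26 ± 0.13) and lowest in Col-0 (6.13 ± 0.21). XTH33 ran from 6.23 ± 0.54 in P35S:rGRF3 to 7.33 ± 0.11 in the mutant. The cellulase neighbours GH9B16, GH9B17 and GH9B18 and the pair GH9B11 and GH9B12 had no array at the filter value, and replicate SDs reached 2.27, at GH9B11 in WS. PME61 read 5.41 ± 0.31 in WS and 5.98 to 6.28 as means of the other genotypes.

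Other wall genes were looked up from a list of 86 symbols for xyloglucan, cellulose, xylan, pectin and wall sensing, of which the array named 6 and 4 were tested. With limma 0 of the 4 were called in the mutant against WS and 0 in P35S:rGRF1 against Col-0, beside 13.9% and 10.5% of all probe sets, and 1 had an unadjusted p under 0.05 in each, beside 27.4% and 26.7%. In P35S:rGRF3 against Col-0, GUT2, a xylan synthase, was lower by -0.48 (SE 0.15, adjusted p = 0.0431) and THE1, a receptor kinase that senses wall integrity, was higher by 0.43 (SE 0.13, adjusted p = 0.0457). These were 2 of the 4, beside 11.9% of all probe sets. Against WS, THE1 in that line was lower by -0.58 (SE 0.13, adjusted p = 0.00185), the opposite direction, and GUT2 was lower by -0.40 (SE 0.15, adjusted p = 0.0312). Again 2 of the 4 were called, beside 52.4% of all probe sets. COB, needed for oriented cellulose deposition, had means of 11.72 to 12.11, and FER, a receptor kinase of wall sensing, of 11.07 to 11.50. COB was higher in P35S:rGRF3 than in P35S:rGRF1 by 0.38 (SE 0.09, adjusted p = 0.00866). Of the 4 genes it was the only 1 called there, beside 21.2% of all probe sets. Across the sets of arrays, COB was higher in WS than in Col-0 by 0.24 (adjusted p = 0.0394). FER was higher in the mutant than in Col-0 by 0.43 (SE 0.13, adjusted p = 0.0107), also across the sets. THE1 differed between the wild types, at 8.93 ± 0.10 (SD, n = 3) in WS and 7.93 ± 0.19 in Col-0 (1.01, SE 0.13, adjusted p = 1.36e-05). The mutant exceeded Col-0 at THE1 by 1.00 (SE 0.13, adjusted p = 1.88e-05). In WS and in the mutant against Col-0, 2 of the 4 were thus called, beside 51.7% and 45.1% of all probe sets.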

How the data were processed

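Linear-scale intensity was deposited for each probe set; the submitters' processing notes name MAS5, whose version and scaling target are not given in the sources used here. Arrays were grouped by their labels. Their log2 was taken without adding an offset; medians of the 15 arrays spanned 0.15, and no further normalization was applied. Of 22810 probe sets 64 controls were left out. Genes were named from the platform annotation, in which 13513 probe sets have 1 gene, 503 several and 8730 none. All 55 members matched a gene of assembly TAIR10.1 under the same symbol, and that table gave locus names and neighbours only. No sequence is printed.

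Group means were fitted to all 15 arrays over 13648 probe sets (limma 3.58.1, R 4.3.3, data.table, version 1.17.8, with a mean-variance trend), and the fit was tested on simulated data. Summaries used pandas 2.3.3 (Python 3.11.15). All adjusted p-values are from limma. No 2 arrays were alike beyond a correlation of 0.9621. Same-numbered arrays of different genotypes had deviations correlated from -0.17 to 0.25, over 0.1 in 6 of 30 pairs, so the numbers do not pair them.

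Named are up to 4 members per subgroup and comparison, called and with no overlap of arrays, largest differences first; the widest and narrowest span per subgroup; and members called in opposite directions in the mutant and P35S:rGRF1 or alike in both lines (0 of the latter). Others (TBL18, TBL35, CSLC6, GH9B8, XTH26, XTH29, XTH33, GH9C3, the remaining dim genes) were added after their values were seen. Members and lists were chosen with earlier results of these data known.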

Additional observations from a re-analysis of the deposited data

How the results depend on the processing

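Under 24 alternatives no called value of the 26 named genes reversed. Of 65 called values 35 kept their call under each alternative that tested them, and 30 lost it under at least 1. Shares over all probe sets tested, in parentheses, moved with most counts. With array weights 11 members were called in the mutant against WS (20.3%) and 10 in P35S:rGRF1 against Col-0 (22.1%). With only the groups compared the counts were 11 in the mutant against WS (17.2%), and 2 in P35S:rGRF1 (6.73%) and 2 in P35S:rGRF3 (4.55%), each against Col-0. P35S:rGRF1 against Col-0 gave 2 with no filter on dim probe sets (4.97%), 3 with no mean-variance trend (9.84%) and 2 when a covariate held the poly-A controls (5.55%), which gave 4 for P35S:rGRF3 against P35S:rGRF1 (9.75%). The poly-A controls were highest on the P35S:rGRF1 arrays, so that covariate is not separate from genotype. The causes were not tested. With the replicate number as a block, which does not pair the arrays, counts were 6, 4, 4, 18, 15, 15 and 6 in the order mutant against WS, P35S:rGRF1 and P35S:rGRF3 against Col-0, P35S:rGRF3 against WS, WS against Col-0, mutant against Col-0, and the lines against each other. Leaving out each array in turn gave ranges, in that order, of 2 to 8, 1 to 6, 1 to 5, 12 to 20, 12 to 17, 12 to 17 and 3 to 8. With no filter, XTH29 was called lower in WS (-1.12, adjusted p = 0.0074) and in the mutant (-1.05, adjusted p = 0.0132) than in Col-0, and higher in P35S:rGRF3 than in WS (1.49, adjusted p = 0.0009). GH9C3 was then called higher in WS than in Col-0 (1.13, adjusted p = 0.0006) and lower in P35S:rGRF3 than in WS (-0.68, adjusted p = 0.0198). XTH33 was called lower in P35S:rGRF3 than in WS (-0.94, adjusted p = 0.0056), and GH9B11 higher in the mutant than in Col-0 (3.43, adjusted p = 0.0266). The mean of several probe sets per gene was not run, since each gene has 1. Low signal limits what can be said of the 20 dim genes, and 3 arrays a genotype limit the tests.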
